A study of Caenorhabditis elegans with 60 samples.

Results

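Transcription regulators known to govern lipid metabolism and the response to foreign compounds in Caenorhabditis elegans are described here. The 9 genes are the nuclear hormone receptors nhr-8, nhr-49, nhr-66, nhr-80 and nhr-86, the Mediator subunit mdt-15, and the transcription factors sbp-1, skn-1 and hlh-30. They were chosen by gene identifier, and all 9 were found among the 10298 genes of the deposited table. All 9 also passed the filter on low values, so they are 9 of the 10293 genes tested.

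The regulators belong to a connected network. Nuclear hormone receptors are DNA-binding proteins that can be tuned by small molecules; in the worm, NHR-49 promotes fatty acid oxidation and desaturation, NHR-66 and NHR-80 act with it on different lipid genes, NHR-8 is needed for resistance to toxins and for sterol balance, and NHR-86 binds a bacterial metabolite and switches on defence genes of the intestine. MDT-15 is the subunit of the Mediator complex through which NHR-49, NHR-86, the SREBP relative SBP-1 and the Nrf relative SKN-1 reach RNA polymerase, while HLH-30, the relative of mammalian TFEB, drives autophagy, lysosome and lipase genes. Much of this activity is controlled at the protein level, and only messenger RNA was measured here.

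Whole worms of the wild-type strain N2 (Bristol) were exposed for 48 h, starting as synchronised first-stage larvae, to hexafluoropropylene oxide dimer acid (HFPO-DA), a fluorinated ether acid of the PFAS group. The 14 concentrations ran from 0.0125 to 4000 mg/L beside an untreated control, with 4 wells per group, 15 groups and so 60 libraries. All groups shared the strain, the liquid medium, the food bacterium E. coli HB101 and the exposure time, and each well was a pool of about 1000 animals. The labels do not say whether the wells were seeded from different cultures, and p-values below cover only well-to-well spread, which may be technical.

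The table holds a normalised signal per gene, called the value below, and sequencing was shallow. Libraries held 462117 to 4522107 recovered reads, the controls a median of 1472382 and the 4000 mg/L wells a median of 890603. Differences were tested with limma on log2(value + 1), with Benjamini-Hochberg adjustment across the genes of each contrast, and a gene is called where its adjusted p is under 0.05. At 4000 mg/L 2932 genes were called, 1518 higher and 1414 lower; at 2000 mg/L 50, at 1000 mg/L 17, and at the 9 lowest concentrations 0 by limma, where 294 to 677 genes had an unadjusted p under 0.05. A pair of libraries stood apart by a residual spread of 1.48 times the median, replicate 4 at 4000 mg/L and replicate 4 at 31.3 mg/L, and without them 1478 genes were called at 4000 mg/L, 713 higher and 765 lower.

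The regulators were transcripts of low to middle abundance. Per length, in reads per kilobase of exon, scaled to equal library size, in the 4 control wells, nhr-86 stood highest at 23.0 ± 1.51 (SD), above 60.7% of the 10070 genes with a length. The receptor was followed by skn-1 at 18.3 ± 2.95 and nhr-49 at 15.2 ± 1.47. Then came mdt-15 (8.69 ± 0.61), nhr-80 (8.64 ± 1.66), sbp-1 (8.00 ± 1.10) and nhr-66 (6.73 ± 0.85), and nhr-8 (5.79 ± 1.85) and hlh-30 (4.68 ± 2.08) were lowest. From skn-1 down, neighbours in this order overlapped between wells, except nhr-49 and mdt-15. In reads, the median library held 90.5 for skn-1, 40.5 for nhr-86, 25.5 for hlh-30 and 14.0 for nhr-8, so counting alone gave a coefficient of variation of 11.3% for skn-1 and 31.6% for nhr-8.

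**Figure D1:**
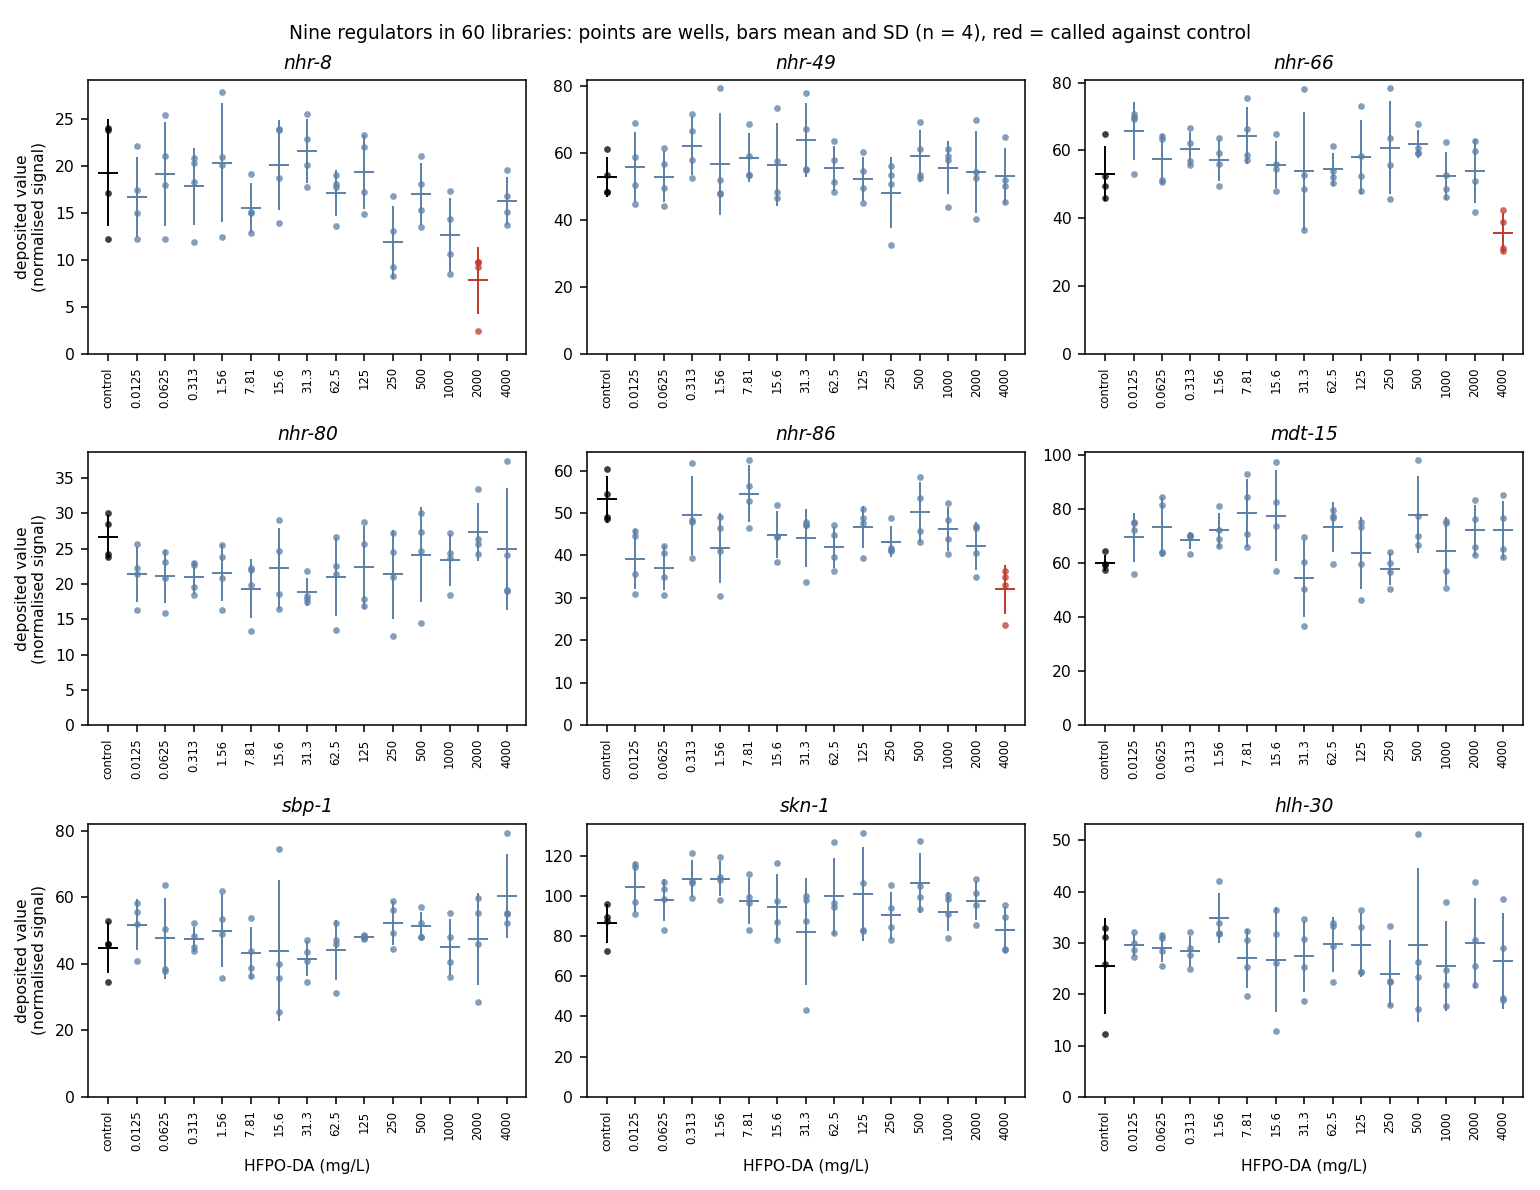
The plot of all wells shows the deposited value of each regulator (linear scale) in the control (black) and at 14 concentrations of HFPO-DA in mg/L; points are wells, bars the mean and SD of 4 wells, and red marks a group called against the control. The red groups are nhr-66 at 30.2 to 42.2 and nhr-86 at 23.5 to 36.4, both at 4000 mg/L, and nhr-8 at 2.42 to 9.77 at 2000 mg/L.

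At 4000 mg/L, the nuclear receptor transcripts nhr-86 and nhr-66 fell and the other 7 regulators were not called. Among all genes tested 28.5% were called in this comparison, 13.7% of them lower and 14.7% higher, so 2 of 9 is near the share of all genes. The nhr-86 gene (CELE_Y40B10A.8, chromosome V, 2061106 to 2066850, minus strand, WBcel235) is annotated as protein-coding with 2 transcripts. Its control wells read 48.7, 49.1, 54.6 and 60.4, and its wells at 4000 mg/L read 23.5, 33.1, 35.0 and 36.4. Every treated well lay below every control well, an arrangement found in 9.68% of all genes at this concentration. The means were 53.2 ± 5.50 in the control and 32.0 ± 5.81 at 4000 mg/L (SD, n = 4). The log2 fold change was -0.73 ± 0.16 (SE), with a limma adjusted p of 0.000692. On the linear scale that is 0.603 of the control level, with an interval of 0.483 to 0.753, and 77 reads stood against 190.

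The second receptor that fell, nhr-66 (CELE_T09A12.4, chromosome IV, 8226331 to 8236602, minus strand), has 10 annotated transcripts, which the table does not separate. Its control wells read 46.0, 49.3, 52.5 and 64.8, and its wells at 4000 mg/L read 30.2, 31.1, 38.9 and 42.2. The groups did not overlap, and the log2 fold change was -0.57 ± 0.17 (SE, limma adjusted p = 0.00929), or 0.675 of the control level with an interval of 0.536 to 0.850. The call was lost in 2 alternatives: adjusted p was 0.0717 when the control and 4000 mg/L wells were fitted alone and 0.114 with voom on the recovered reads, while nhr-86 was called in both. In whole-worm RNA, fewer cells of a type and less RNA per cell cannot be told apart.

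The remaining receptors were not called at 4000 mg/L. NHR-49's own transcript (CELE_K10C3.6, chromosome I, 9869651 to 9874680) read 48.2, 48.4, 53.5 and 61.1 in the controls and 45.5, 50.1, 52.0 and 64.9 at 4000 mg/L. The groups overlapped, with the lowest and the highest of the 8 wells both treated, and the difference was 0.00 on the log2 scale with an interval of -0.35 to 0.36 (limma adjusted p = 0.993), which leaves room for a level from 0.784 to 1.28 of the control. The desaturase regulator nhr-80 (CELE_H10E21.3, chromosome III, 11985 to 14869) had a log2 fold change of -0.14 with an interval of -0.60 to 0.32. Its treated wells, at 19.0, 19.2, 24.1 and 37.5, spread more widely than its controls, at 23.8 to 30.1, and 3 of the 4 lay outside the control range. For nhr-8 (CELE_F33D4.1, chromosome IV, 7710983 to 7714210) the log2 fold change was -0.20 with an interval of -0.75 to 0.36, and its wells at 13.6 to 19.5 lay inside the control range.

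The coactivator and the 3 transcription factors were not called at 4000 mg/L either. The sbp-1 gene (CELE_Y47D3B.7, chromosome III, 11428367 to 11442566) came closest: its controls read 34.4, 46.0, 46.0 and 52.8 and its treated wells 52.2, 55.1, 55.2 and 79.3. The groups touch at their edges, and the log2 fold change of 0.42 ± 0.21 (SE) had a limma adjusted p of 0.127. Leaving out replicate 3, the well at 79.3, gave 0.28, and setting 4000 mg/L against the control pooled with the 9 lowest concentrations gave 0.39 with an adjusted p of 0.0292. The Mediator subunit mdt-15 (CELE_R12B2.5, chromosome III, 5828557 to 5833751) read 57.4 to 64.5 in the controls and 62.2 to 85.3 at 4000 mg/L, a log2 fold change of 0.25 with an interval of -0.08 to 0.58. The oxidative stress factor skn-1 (CELE_T19E7.2, chromosome IV, 5651039 to 5660384) read 72.8 to 95.8 and 73.0 to 95.5, a log2 fold change of -0.06 with an interval of -0.40 to 0.27. The widest interval of these 4 was that of hlh-30 (CELE_W02C12.3, chromosome IV, 4014793 to 4034951), -0.48 to 0.63 around 0.07, with single wells holding 6 to 36 reads in the control and 9 to 27 at 4000 mg/L.

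**Figure D2:**
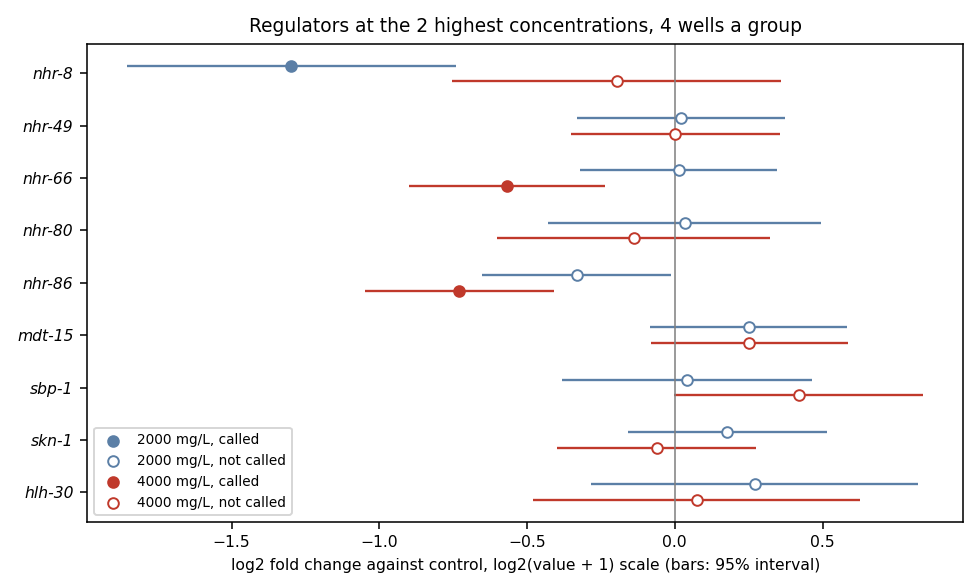
The plot of fold changes gives the log2 fold change against control on the log2(value + 1) scale for each regulator at 2000 mg/L (blue) and 4000 mg/L (red), with 95% intervals from the limma fit and 4 wells a group; filled points were called. The nhr-8 point lies at -1.30 at 2000 mg/L and -0.20 at 4000 mg/L, and those of nhr-66 and nhr-86 at 4000 mg/L lie at -0.57 and -0.73.

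At 2000 mg/L the one regulator called was nhr-8, the receptor of toxin resistance, and it was lower. In this comparison 0.486% of all genes were called, 0.175% lower. Its control wells read 12.2, 17.1, 23.8 and 24.0 and its wells at 2000 mg/L read 2.42, 9.21, 9.72 and 9.77. No treated well reached the lowest control, which held for 2.11% of all genes at 2000 mg/L. The log2 fold change was -1.30 ± 0.28 (SE, limma adjusted p = 0.00598). The wells together held 23 reads against 63, a ratio of 0.328 (counting interval 0.194 to 0.537). The value 2.42, replicate 4, is a library with 0 reads for nhr-8; without it the log2 fold change was -0.89 and the adjusted p 0.198, and without control replicate 2 or 4 the adjusted p was 0.0613 or 0.0524. Fitted on the control and 2000 mg/L wells alone, the adjusted p was 0.423.

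The lower level of nhr-8 at 2000 mg/L was not present at 4000 mg/L. Between these concentrations nhr-8 rose by 1.10 ± 0.28 (SE) on the log2 scale (limma adjusted p = 0.00868), in a comparison in which 8.65% of all genes were called. Its wells read 2.42 to 9.77 at 2000 mg/L and 13.6 to 19.5 at 4000 mg/L. The share of all genes without overlap between these groups was not counted. Without the library with 0 reads at 2000 mg/L the step was 0.69 ± 0.26 and was not called (limma adjusted p = 0.0790). The step went the other way for nhr-66, whose wells at 2000 mg/L read 41.8, 51.0, 59.8 and 62.7: it fell by 0.58 ± 0.17 (SE) from 2000 to 4000 mg/L (limma adjusted p = 0.0218). That step was not called without replicate 1 or 2 at 4000 mg/L (adjusted p = 0.0575 and 0.0724) or without replicate 2 or 3 at 2000 mg/L (0.0593 and 0.101). At 2000 mg/L nhr-66 had thus been level with the control, with a log2 fold change of 0.01 and an interval of -0.32 to 0.35. For nhr-86 the step was -0.40 with an interval of -0.72 to -0.08 and was not called (limma adjusted p = 0.102); its wells at 2000 mg/L read 34.8, 40.5, 46.5 and 46.9, all below the controls, and the log2 fold change there was -0.33 (limma adjusted p = 0.665).

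At 1000 mg/L and below, limma called 0 of the 9 regulators at any of the 12 concentrations, and at these the share of all genes called was 0.165% at 1000 mg/L, 0.0194% at 500 mg/L, 0.00972% at 250 mg/L and 0% below. The mean of nhr-8 was 12.6 ± 3.92 (SD, n = 4) at 1000 mg/L and 11.8 ± 3.90 at 250 mg/L, with 16.9 ± 3.30 between them at 500 mg/L and 17.1 ± 2.41 at 62.5 mg/L. The log2 fold changes of -0.57 and -0.66 at 1000 and 250 mg/L had unadjusted p of 0.0447 and 0.0211 in the limma fit and did not pass adjustment (adjusted p = 1.00 for both). Over the whole series nhr-8 fell with the rank of the concentration, by 0.05 ± 0.01 (SE) on the log2 scale per rank (limma adjusted p = 0.0315), a trend that 6.57% of all genes showed, 2.77% downward. The trend was not called without the 4000 mg/L wells (adjusted p = 0.0974), without replicates numbered 2 (0.298) or 4 (0.172), on recovered reads (0.0590), or without the pair of libraries that stood apart (0.0568). The slope of nhr-66 was -0.02 (limma adjusted p = 0.0648) and the other 7 slopes had adjusted p of 0.375 or more.

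**Figure D3:**
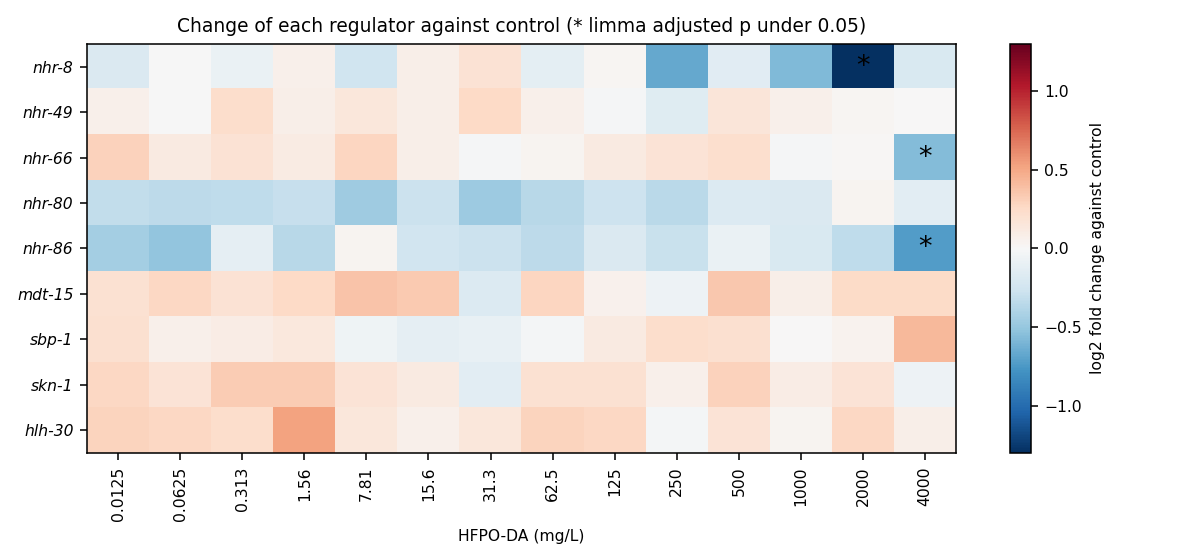
The colour map gives the log2 fold change of each regulator (rows) against the control at each of the 14 concentrations in mg/L (columns), blue lower and red higher; stars mark limma adjusted p under 0.05. The 3 stars are nhr-8 at 2000 mg/L and nhr-66 and nhr-86 at 4000 mg/L, and the nhr-80 and nhr-86 rows are blue in 13 of 14 columns. All columns share the same 4 control wells, whose mean ranked 14 from the lowest among the 15 groups for both genes. The share of all genes with such a count was not computed.

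The nhr-86 transcript was below the control at low concentrations too, without passing adjustment. At 0.0125 mg/L its wells read 30.8, 35.6, 44.6 and 45.7 and at the next concentration up 30.8, 34.9, 40.6 and 42.3, all below the lowest control at 48.7. That arrangement held for 1.63% and 1.18% of all genes at these concentrations. The log2 fold changes were -0.44 and -0.51, with unadjusted p of 0.00739 and 0.00227 in the limma fit and adjusted p of 1.00 in both. The receptor was back at 54.5 ± 6.67 (SD, n = 4) at 7.81 mg/L and at 50.3 ± 7.00 at 500 mg/L, so the level did not follow concentration, and its slope over ranks was -0.01 (limma adjusted p = 0.375). In 13 of 14 contrasts nhr-86 was lower, but all contrasts share the same 4 control wells, whose mean of 53.2 was exceeded by that of 1 treated group. Against the control pooled with the 9 lowest concentrations, the log2 fold change at 4000 mg/L was -0.49 with a limma adjusted p of 0.00167.

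The ranges of group means are listed here, and whether they differ beyond the spread of wells was not tested. Means of nhr-49 were lowest at 250 mg/L (48.2) and highest at 31.3 mg/L, and those of skn-1 between 82.2 at 31.3 mg/L and 109 at 1.56 mg/L. The highest mean was 1.33 times the lowest for nhr-49 and 1.32 times for skn-1, 1.45 times for nhr-80, mdt-15 and hlh-30, 1.46 times for sbp-1, 1.70 times for nhr-86, 1.85 times for nhr-66 and 2.77 times for nhr-8. The lowest means of skn-1 and mdt-15, at 31.3 mg/L, include wells at 43.1 and 36.7 from replicate 4, a library that stood apart. That of nhr-8, at 2000 mg/L, includes the well with 0 reads. For nhr-80 the lowest mean was 18.9 ± 2.00 (SD, n = 4) at 31.3 mg/L and the highest 27.4 ± 4.12 at 2000 mg/L, with the control at 26.7 ± 3.11; its smallest unadjusted p was 0.0438. Within groups, mdt-15 and skn-1 varied together (Pearson r of the deviations from group means 0.62 over 60 libraries), as did skn-1 and hlh-30 (0.57) and mdt-15 and hlh-30 (0.41), beside a median of 0.08 over the 36 pairs of regulators. Without the pair of libraries that stood apart these values were 0.52, 0.55 and 0.36. The same deviations went with log2 depth, at r = 0.40 for mdt-15, 0.45 for skn-1 and 0.54 for hlh-30. Those of nhr-86 (0.38) and sbp-1 (0.32) did so too, and the rest had -0.09 to 0.18. By median depth the 4000 mg/L wells were the shallowest group. The part of depth in the shared variation, and in the level of nhr-86 at 4000 mg/L, was not tested.

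By group means, the genes most like nhr-66 over the 15 groups were F56C9.3 (Pearson r = 0.96), ruvb-2 (0.95) and wrb-1 (0.94), among 6696 genes with a mean value of at least 20. Their log2 fold changes at 4000 mg/L were -0.49, -0.59 and -0.76, values that the choice itself used, since that group is 1 of the 15. For nhr-86 they were pqn-68 (0.88), Y62F5A.12 (0.88) and eipr-1 (0.86); their log2 fold changes there were -0.40, -0.72 and -0.87, which the choice used likewise. The overlapping neighbour serp-1.2, which shares 22 exonic bases with nhr-66 on the opposite strand, fell by 0.58 (limma adjusted p = 0.000952), and comt-3, which shares 31 with nhr-86, had -0.39 (adjusted p = 0.265). The csn-5 gene, which shares 41 with skn-1, fell by 0.44 (limma adjusted p = 0.00405). Strand use in counting is not stated, so reads from these shared bases cannot be assigned to one gene.

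Genes known to be controlled by the receptors were read against all genes tested, of which 13.7% fell and 14.7% rose at 4000 mg/L. Of 9 tested NHR-49 targets, 2 fell (22.2%) and 0 rose; their median log2 fold change was -0.49, beside -0.05 over all genes. The flavin monooxygenase fmo-2, a stress-induced enzyme, fell by 1.55 ± 0.38 (SE; limma adjusted p = 0.00243), from 35.1 ± 11.6 to 13.3 ± 9.49 (SD, n = 4). The stearoyl-CoA desaturase fat-7 fell by 1.51 ± 0.38 (limma adjusted p = 0.00301), from 88.1 ± 46.6 to 37.7 ± 32.2, and its adjusted p was 0.0523 without the libraries that stood apart. Other NHR-49 targets did not pass, among them the acyl-CoA synthetase acs-2 at -0.82 (limma adjusted p = 0.264) and the desaturase fat-6 at 0.04 (adjusted p = 0.927). The single tested gene of the NHR-86 defence genes, irg-4, fell by 0.90 ± 0.30 (limma adjusted p = 0.0188), from 30.1 ± 4.83 to 16.6 ± 6.30. With voom, which moved the median of all genes by 0.10 and called 1275 genes higher and 366 lower, fmo-2, fat-7 and irg-4 were not called (adjusted p = 0.0776, 0.0575 and 0.111).

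Of 24 listed xenobiotic genes linked to NHR-8 and MDT-15, 11 were tested. Among these 2 rose (18.2%) and 3 fell (27.3%), beside 14.7% and 13.7% of all genes, and the median log2 fold change was -0.13. Both that rose were exporters of the P-glycoprotein family, whose other 6 tested genes were not called, at log2 fold changes of -0.44 to 0.30: pgp-1 went from 3 reads to 146 over 4 wells each, a ratio of 72.8 (counting interval 24.4 to 357) (limma adjusted p = 4.98e-20), and pgp-14 rose by 2.08 ± 0.40 on the log2 scale (limma adjusted p = 0.000153). The genes that fell were cytochrome P450 genes of the cyp-35 family: cyp-35C1 by 1.43 ± 0.28 (limma adjusted p = 0.000172), cyp-35A2 by 1.27 ± 0.21 (adjusted p = 1.04e-05) and cyp-35D1 (adjusted p = 0.0137), whose reads went from 21 to 1, or 0.0712 of the control (counting interval 0.00172 to 0.443). The cyp-35D1 gene was not called without the libraries that stood apart (adjusted p = 0.0567) or without control replicate 2 (0.0863). At 2000 mg/L pgp-1 had already risen by 1.95 ± 0.23 (limma adjusted p = 1.25e-08) and cyp-35C1 had fallen by 1.19 ± 0.28 (adjusted p = 0.0206). The nhr-8 transcript was lowest at this concentration, a call that was lost without the well with 0 reads. Whether its level bears on these genes was not tested. Members of these families share sequence with near copies, and how such reads were counted is not stated.

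Of 14 tested lipid synthesis genes under SBP-1 and MDT-15, 2 rose (14.3%) and 3 fell (21.4%), beside 14.7% and 13.7% of all genes, and the median log2 fold change was 0.04. The diacylglycerol acyltransferase dgat-2, which makes storage fat, rose by 1.13 ± 0.25 (limma adjusted p = 0.000668), from 19.9 ± 3.02 to 45.1 ± 10.4 (SD, n = 4). The ATP citrate lyase acly-2 fell by 0.53 ± 0.17 (limma adjusted p = 0.0143), and fat-7 is counted here too. The fatty acid synthase fasn-1 (0.27, adjusted p = 0.143) and the acetyl-CoA carboxylase pod-2 (0.43, adjusted p = 0.0634) were not called by limma. Without the libraries that stood apart 2 of the 14 rose and 1 fell, and with voom 3 rose and 0 fell. Of all 10293 genes, 713 rose and 765 fell without those libraries, and 1275 rose and 366 fell with voom. Of 6 genes of SBP-1 processing and phosphatidylcholine synthesis 1 rose, the phosphoethanolamine methyltransferase pmt-1 by 0.56 ± 0.12 (limma adjusted p = 0.000379).

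For SKN-1, 4 of 13 tested regulators fell (30.8%) and 0 rose, beside 13.7% and 14.7% of all genes. Of 12 detoxification targets 1 rose (8.33%) and 0 fell. The aspartic protease ddi-1, which cuts SKN-1A into its active form, fell by 0.61 ± 0.13 (limma adjusted p = 0.000635), and xrep-4, an F-box protein of SKN-1 control, by 0.51 ± 0.15 (adjusted p = 0.00820). The kinase akt-1 fell by 0.41 ± 0.16 (limma adjusted p = 0.0424). Without the libraries that stood apart 1 of these regulators was called, ddi-1 (adjusted p = 0.00501), and with voom 1 as well. These 2 settings called 765 and 366 of all 10293 genes lower. With voom, and with runs of 12 sample numbers as a term, 3 of the 12 targets rose (25.0%). Of all 10293 genes, 1275 and 1814 rose in these fits. Among the targets gst-38 rose from 3.99 ± 1.90 to 11.8 ± 2.79 (SD, n = 4; limma adjusted p = 0.000334), or from 8 reads to 25, while the standard reporters of SKN-1 activity gst-4 (-0.12, adjusted p = 0.782) and gcs-1 (-0.22, adjusted p = 0.321) were not called.

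Among 23 tested autophagy and lysosome targets of HLH-30, 4 rose and 4 fell, 17.4% each way and near the 14.7% and 13.7% of all genes. The lysosomal protease cpl-1 fell by 0.89 ± 0.20 (limma adjusted p = 0.000684) and the lipase lipl-5 by 0.60 ± 0.14 (adjusted p = 0.00148), whereas the lipase lipl-2 rose by 0.73 ± 0.22 (adjusted p = 0.0122). The 3 proton pump genes vha-13, vha-15 and vha-16 were the other genes that rose. Of 10 genes that control HLH-30 or pair with its relatives 3 fell, the small GTPases rheb-1 by 0.52 ± 0.17 (limma adjusted p = 0.0173) and ragc-1 by 0.48 ± 0.12 (adjusted p = 0.00287), and the bHLH partner mxl-2 by 0.51 ± 0.15 (adjusted p = 0.00790). With voom, 7 of the 23 HLH-30 targets were higher and 2 lower, and 0 of the 10 control genes were called. That fit called 1275 of all 10293 genes higher and 366 lower. Without the libraries that stood apart 3 targets rose and 2 fell, where 713 of all genes rose and 765 fell.

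**Figure D4:**
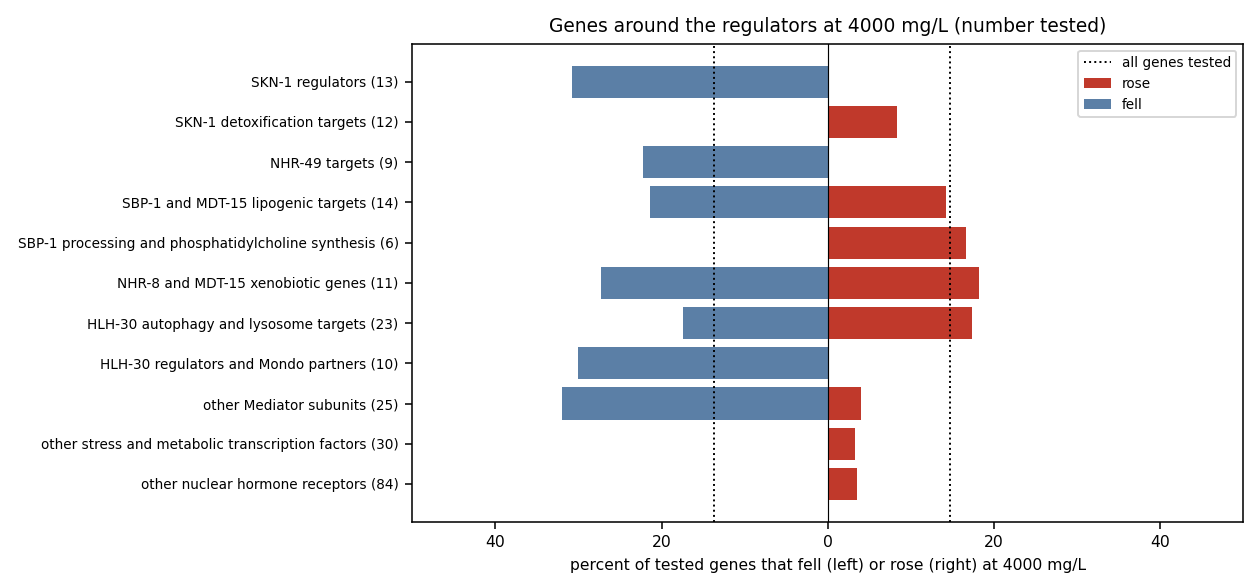
The bar plot gives, for 11 gene lists, the percent of tested genes that fell (blue, left) or rose (red, right) at 4000 mg/L by limma adjusted p under 0.05, with the number tested in brackets; dotted lines mark 13.7% lower and 14.7% higher over all genes. Other Mediator subunits reach 32.0% on the lower side, and other nuclear hormone receptors 3.57% on the higher side and 0% on the lower.

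Relatives of the regulators were compared with them in the same way. Of 25 other tested Mediator subunits 8 fell (32.0%) and 1 rose (4.00%), beside 13.7% and 14.7% of all genes. Their median log2 fold change was -0.32, beside -0.05 over all genes, while mdt-15 stood at 0.25. The subunit gene mdt-18 fell by 0.80 ± 0.20 (limma adjusted p = 0.00288) and mdt-6 by 0.65 ± 0.19 (adjusted p = 0.00986), and dpy-22, a subunit of the kinase module, rose by 0.68 ± 0.24 (adjusted p = 0.0309). Without the libraries that stood apart 4 fell (16.0%) and 0 rose, and with voom 0 were called. Among all 10293 genes, 765 and 366 fell in these fits. Of 84 other tested nuclear hormone receptors 3 rose (3.57%) and 0 fell, below the shares of all genes. The 3 were nhr-121 by 0.97 ± 0.32 (limma adjusted p = 0.0184), nhr-142 by 0.85 ± 0.28 (adjusted p = 0.0183) and nhr-31 by 0.74 ± 0.26 (adjusted p = 0.0278). Their control wells together held 19, 8 and 94 reads. Whether few reads or steady levels lie behind the low share was not tested. With quantile normalization 1 rose and 2 fell, and without the libraries that stood apart 0 were called. These settings called 28.6% and 14.4% of all genes in either direction. Among 30 other stress and metabolic transcription factors hlh-11 alone was called (3.33%), at 0.61 ± 0.21 (limma adjusted p = 0.0280). Without the libraries that stood apart or with quantile normalization 0 were called.

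Markers of tissues were read at 4000 mg/L against all genes tested, of which 14.7% rose and 13.7% fell. Of 11 intestinal markers 7 rose (63.6%) and 0 fell, and their summed value was 2707 to 4369 against 1510 to 2033 in the controls. Of 11 germ line and oocyte markers 6 fell (54.5%) and 0 rose, with sums of 3020 to 4207 against 4552 to 5723. Of 6 hypodermis and cuticle markers 5 rose (83.3%), with sums of 6190 to 8194 against 6071 to 7622. Those 5, dpy-13, elt-3, bli-1, rol-6 and sqt-3, held 28, 43, 3, 5 and 26 reads over the control wells. They add little to the sums, which rest mostly on the marker that was not called. In muscle 4 of 8 markers rose (50.0%), with sums of 6865 to 8615 against 5106 to 6813. Neuronal markers rose in 3 of 9 cases (33.3%), at 393 to 490 against 315 to 398. Sperm markers rose in 2 of 29 (6.90%), below the share of all genes, at 10849 to 20183 against 5871 to 15155. Without the libraries that stood apart 6 intestinal, 2 hypodermal, 3 muscle, 1 neuronal and 1 sperm marker rose and 5 germ line markers fell. In that fit 713 of all 10293 genes rose and 765 fell. With runs of 12 sample numbers as a term, 23 of the 29 sperm markers rose (79.3%), where 1814 of all 10293 genes rose. Plates held 12 wells and RNA was isolated on 2 days. The labels do not say whether the sample numbers follow plates or days. Summed over the 4 wells every tested marker had reads in the controls and at 4000 mg/L; single wells at 0 reads occurred for 1 sperm and 2 hypodermis markers in the controls and for 2 hypodermis markers at 4000 mg/L. At 2000 mg/L 0 of the genes on any of these marker lists were called by limma, and the sums of the germ line list (4606 to 5387) overlapped the controls. The part of tissue make-up or of developmental stage in the values of nhr-86, nhr-66 and the target genes was not tested.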

How the data were processed

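Poly(A) RNA of 60 wells was sequenced per the labels; groups came from the sample titles. The deposited signal is a normalised value per gene on a linear scale, not a read count. Per the submitters' processing notes the build was WBcel235, and the tools, whose roles and order are not stated, were edgeR 3.36.0, HTSeq 2.0.1, STAR 2.7.10a, Trimmomatic 0.39 and UMI-tools 1.1.2. How they led to these values is not given in the sources used here. From the values themselves, each value v is 1 + f × (1 + scaled reads); the factor f belongs to 1 gene and 1 replicate number (0.445 to 3.18), and reads of 0 are held as 0.5. Whether f is an adjustment by replicate number made by the authors is not stated; such a step could remove differences between replicate numbers and with them part of the spread within groups. Reads recovered in this way were whole within 0.0001 for 100% of 617880 values, and gave the depths, the levels per length and the counting intervals, which are exact 95% intervals covering counting error only. Depth limits the precision, most of all for nhr-8 and hlh-30.

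Genes with a value of 5 in at least 4 libraries were tested as log2(value + 1) with limma 3.58.1 in R 4.3.3, fitting 15 group means together with trend set on mean value, two-sided p-values and Benjamini-Hochberg adjustment over all genes; the log2(value + 1) scale understates changes of low genes. A second fit took 1 slope for each gene over concentration ranks 0 to 14. The recovery and the fits were tested on simulated tables. All 90 within-group pairs of wells differed by more than counting noise, the closest having a dispersion 1.57 times that noise. The members and lists were chosen with earlier results of these data known. Named genes are the 9 members, up to 3 called genes of each list with the largest change at 4000 mg/L (with none called, the 2 of highest mean), and the 3 genes most like each member called at 4000 mg/L; other genes named were chosen after their values were seen. Positions and symbols came from the WBcel235 annotation, which matched 10294 identifiers. Alternatives are given in the closing section; the fit without 2 libraries of wide residuals, the pooled reference, the fits on recovered reads with and without a replicate block, the step with libraries left out, and the list counts under other settings were added after seeing the data. Tables and plots used matplotlib 3.10.9, pandas 2.3.3 and numpy 2.4.6 in Python 3.11.15.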

Additional observations from a re-analysis of the deposited data

Results flagged for a closer look

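In 9 of 135 groups of 4 wells (9 regulators in 15 groups) the highest or lowest well stood apart, by Dixon's criterion at the 95% level on the gap to the nearest other well; chance flags about 1 in 20 groups. The nhr-8 value of replicate 4 at 2000 mg/L was 2.42, with 0 reads, against 9.21 to 9.77 in the other wells, and the call of nhr-8 at this concentration was lost without it. The sbp-1 value of replicate 3 at 4000 mg/L was 79.3 against 52.2 to 55.2. For nhr-86, replicate 2 at 31.3 mg/L read 33.8 against 47.2 to 47.9, and replicate 4 at 250 mg/L read 48.8 against 41.1 to 41.7. For mdt-15, replicate 2 at 0.0125 mg/L read 55.9 against 72.5 to 75.2, replicate 4 at 0.313 mg/L read 63.6 against 70.0 to 70.3, and replicate 2 at 62.5 mg/L read 59.8 against 76.8 to 79.7. For nhr-66, replicate 1 at 0.0125 mg/L read 53.0 against 69.4 to 70.6. For nhr-49, replicate 4 at 1.56 mg/L read 79.5 against 47.7 to 51.9.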

How the results depend on the processing

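No called value changed sign under any alternative, and nhr-86 at 4000 mg/L was called under all 23, with log2 fold changes of -0.86 to -0.49. The number of regulators called at 4000 mg/L was 2; it was 1 with voom on recovered reads and 1 with the 2 groups fitted alone, nhr-66 being lost in both, and 2 with each library left out. The number called at 2000 mg/L was 1; it was 0 with the 2 groups fitted alone, and 0 to 1 with a library left out. The number called at 1000 mg/L or below was 0 under all 66 alternatives. The number with a trend was 1; it was 0 with voom, on recovered reads with and without a replicate block, with log10 concentration without controls, without the 4000 mg/L libraries and without the 2 libraries of wide residuals, 2 with runs of 12 sample numbers as a term on recovered reads, and 0 to 2 with a replicate number left out. Where no reason is given by fewer samples, the cause was not tested.

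The number of genes called at 4000 mg/L was 2932; it was 1641 with voom, 1131 with the 2 groups fitted alone, 1478 without the 2 libraries of wide residuals, 5002 against the pooled reference and 1303 to 3345 with a library left out, the lowest without replicate 4 at 4000 mg/L and 1817 without control replicate 2. At 2000 mg/L 50 genes were called and 123 against the pooled reference. The trend was called for 676 genes; the count was 148 with voom, 304 on recovered reads, 246 with log10 concentration, 32 without the 4000 mg/L libraries, 208 without the 2 libraries of wide residuals, 1169 and 1069 with runs of 12 on values and on reads, and 125 to 1697 with a replicate number left out.

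The labels do not say what a replicate number marks, but libraries with the same number share the factor per gene in the deposited values. The correlations of the deviations of control and 4000 mg/L wells with the same number were -0.18, -0.01, -0.01 and -0.24, and 7 of 60 libraries correlated best with their own number, but that factor may have removed such effects. On recovered reads, which do not carry it, the pairs of control and 4000 mg/L wells had -0.20 to -0.05. Over all groups, however, same-numbered libraries were somewhat more alike on these reads, with a mean of 0.09 against -0.03 for other numbers. The main fit carried no term for the replicate number, and a replicate block was fitted as an alternative. With the replicate block, 2 regulators were called at 4000 mg/L, 1 at 2000 mg/L, 0 below and 1 by trend, and 2760, 49 and 595 genes were called at 4000 mg/L, at 2000 mg/L and by trend. With the replicate block on recovered reads 2, 1, 0 and 0 regulators and 2504, 44 and 501 genes were called, against 1957, 39 and 304 genes on recovered reads without it.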
